A study of Mus musculus with 6 samples.

Results

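Myeloperoxidase (Mpo), neutrophil elastase (Elane) and both calprotectin subunits (S100a8 and S100a9) were examined on 6 mouse arrays of sorted bone marrow cells. All probe sets annotated to exactly 1 of these symbols were taken, which gave 4 probe sets for 4 genes, out of 10366 genes with a probe set of their own in the table. The genes had been picked with their values in the comparison of the arrays labelled Zeb2-KO with those of wild-type (WT) mice already known, so their values in it are a description, and the count of calls among them, given once beside the share over all probe sets, supports nothing. The group labelled Zeb2-KO holds 3 arrays from Zeb2 fl/fl Mx1-Cre mice, genotype Zeb2[delta/delta]Mx1-Cre, and the WT group holds 3 arrays from C57Bl/6 WT mice. Mice of both groups received polyinosinic-polycytidylic acid (pIC) at 6 weeks of age and were killed 8 weeks later, at 14 weeks. pIC raises interferon, which switches on the Mx1 promoter and with it the Cre recombinase, and Mx1-Cre is active in many interferon-responsive tissues beside the marrow. The cells were LKS-Slam marker positive, that is, lineage-negative, Kit-positive and Sca-1-positive cells selected further on SLAM surface antigens, a gate rich in hematopoietic stem cells. Each array stands for 1 bone marrow sample, and the labels call the arrays biological replicates without saying whether a sample pooled mice.

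Neutrophils build their granules in waves. Mpo, a heme enzyme that makes hypochlorous acid, and Elane, a serine protease, are packed into primary (azurophil) granules at the promyelocyte stage, and Mpo RNA can already be found in multipotent cells primed for the myeloid lineage. Proteins of the secondary and tertiary granules follow at later stages. S100a8 and S100a9 are calcium-binding proteins that pair into calprotectin, fill the cytosol of mature neutrophils and monocytes, and act outside the cell on Toll-like receptor 4 and the receptor Ager. Stem cells are not known for storing any of the 4 proteins.

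The promoters of the 4 genes are shown because S100a9 was high on Zeb2-KO replicate 1 and S100a8 was not. These calprotectin genes lie beside each other with no protein-coding gene between them in RefSeq. Whether S100a8 RNA was above background was not tested, nor was any link between promoter letters and array levels. Each stretch runs from 250 bases before to 50 after the annotated start (RefSeq, GRCm38.p6), 5′ to 3′ on the gene's own strand. Capitals mark matches on either strand to 4 motifs, namely the TATA box (TATAAA), the PU box of the granulocyte factor PU.1 (GAGGAAG), a C/EBP site (TTNNGCAA) and the E2-box that ZEB factors bind (CACCTG). No match shared a base with another.
Mpo, chr11:87793534-87793833, plus strand: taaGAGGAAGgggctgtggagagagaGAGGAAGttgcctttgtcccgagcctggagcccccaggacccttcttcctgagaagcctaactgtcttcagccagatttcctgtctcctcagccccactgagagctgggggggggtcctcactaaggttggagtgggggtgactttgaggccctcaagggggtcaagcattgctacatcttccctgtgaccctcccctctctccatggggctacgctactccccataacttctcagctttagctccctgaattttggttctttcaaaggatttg
Elane, chr10:79886062-79886361, plus strand: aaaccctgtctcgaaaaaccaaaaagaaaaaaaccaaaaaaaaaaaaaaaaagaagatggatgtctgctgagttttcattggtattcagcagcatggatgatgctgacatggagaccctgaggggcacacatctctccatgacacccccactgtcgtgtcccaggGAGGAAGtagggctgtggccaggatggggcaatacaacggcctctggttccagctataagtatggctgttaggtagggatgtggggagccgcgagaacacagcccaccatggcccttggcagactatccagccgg
S100a8, chr3:90668821-90669120, plus strand: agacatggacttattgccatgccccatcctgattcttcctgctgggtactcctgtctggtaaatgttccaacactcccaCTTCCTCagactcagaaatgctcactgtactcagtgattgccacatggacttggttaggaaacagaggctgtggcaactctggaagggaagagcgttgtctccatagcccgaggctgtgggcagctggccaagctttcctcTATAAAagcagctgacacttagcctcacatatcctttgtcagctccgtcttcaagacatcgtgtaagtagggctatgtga
S100a9, chr3:90695672-90695971, minus strand: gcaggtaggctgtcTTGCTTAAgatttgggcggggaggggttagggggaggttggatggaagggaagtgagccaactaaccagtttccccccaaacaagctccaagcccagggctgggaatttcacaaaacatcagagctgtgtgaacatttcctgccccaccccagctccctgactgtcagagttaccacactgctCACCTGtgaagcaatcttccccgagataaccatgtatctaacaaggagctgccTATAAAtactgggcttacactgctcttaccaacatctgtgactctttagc
The PU box stood in the windows of Mpo (247 and 224 bases upstream of the start), Elane (85 bases upstream) and S100a8 (171 bases upstream, reverse strand), and 13.6% of all 32851 mouse promoter windows of this length hold it. A TATA box lay 30 bases upstream in S100a8 and began at the annotated start in S100a9, against 13.6% of all windows. The S100a9 window alone among the 4 held the E2-box, 53 bases upstream, a motif present in 20.2% of windows, and the C/EBP letters, 236 bases upstream on the reverse strand, present in 10.8%. These matches describe letters only and are no evidence of binding.

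Zeb2, the targeted gene, ran against the labels. Its log2 intensity was 7.79, 9.13 and 8.96 on the arrays labelled Zeb2-KO (values are given in the order of replicates 1, 2 and 3 throughout) and 6.58, 7.51 and 7.34 in WT. The difference of 1.48 missed the threshold of 0.05 (limma adjusted p = 0.581). Its 1 probe set may lie outside the deleted part, so every direction given here rests on the labels. Median intensities ran from 94.3 to 99.2 per array, but the interquartile range of log2 values ran from 1.59 on WT replicate 1 to 2.40 on Zeb2-KO replicate 2. Zeb2 was also lowest on WT replicate 1 and highest on Zeb2-KO replicate 2, and the part of array spread in its difference was not tested. WT replicate 1 correlated least with the other arrays (mean r = 0.841 over probe sets, against 0.886 to 0.908). The mean of 3 Y-linked genes was raised on Zeb2-KO replicate 1 (6.17) and WT replicate 1 (5.13) over the other arrays (3.82 to 4.03), and Xist was lowest on the same 2 arrays (8.15 and 9.70, against 10.70 to 11.09). Kit was at 9.0 on WT replicate 1 and at 9.89 to 10.23 on the other 5. Slamf1, which encodes the SLAM antigen CD150, was also lowest on WT replicate 1, at 5.76, and at 7.94 to 9.01 on the other 5. These are bulk samples, in which fewer cells of a type and less RNA per cell cannot be told apart.

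Mpo varied from mouse sample to mouse sample over a 3.57-fold range. On the arrays labelled Zeb2-KO its log2 intensity was 6.83, 7.65 and 8.18, and on the WT arrays it was 6.34, 7.14 and 6.53. Zeb2-KO replicates 2 and 3 lay above all WT arrays, whereas Zeb2-KO replicate 1 lay below WT replicate 2, so the groups overlapped. The group means were 7.55 ± 0.68 and 6.67 ± 0.42 (SD, n = 3). They differed by 0.88 (SE 0.38), that is 1.84-fold, more than the SD within either group. Leaving out Zeb2-KO replicate 3, the highest array, reduced it to 0.56, and it was 1.24 without Zeb2-KO replicate 1. Once array spread (the interquartile range) entered the fit, the Mpo difference was 0.37. The arrays with low Mpo (WT replicates 1 and 3 and Zeb2-KO replicate 1) were also those with the smallest interquartile ranges (1.59, 1.77 and 1.83), and the part of array spread in the difference was not otherwise tested.

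**Figure D1:**
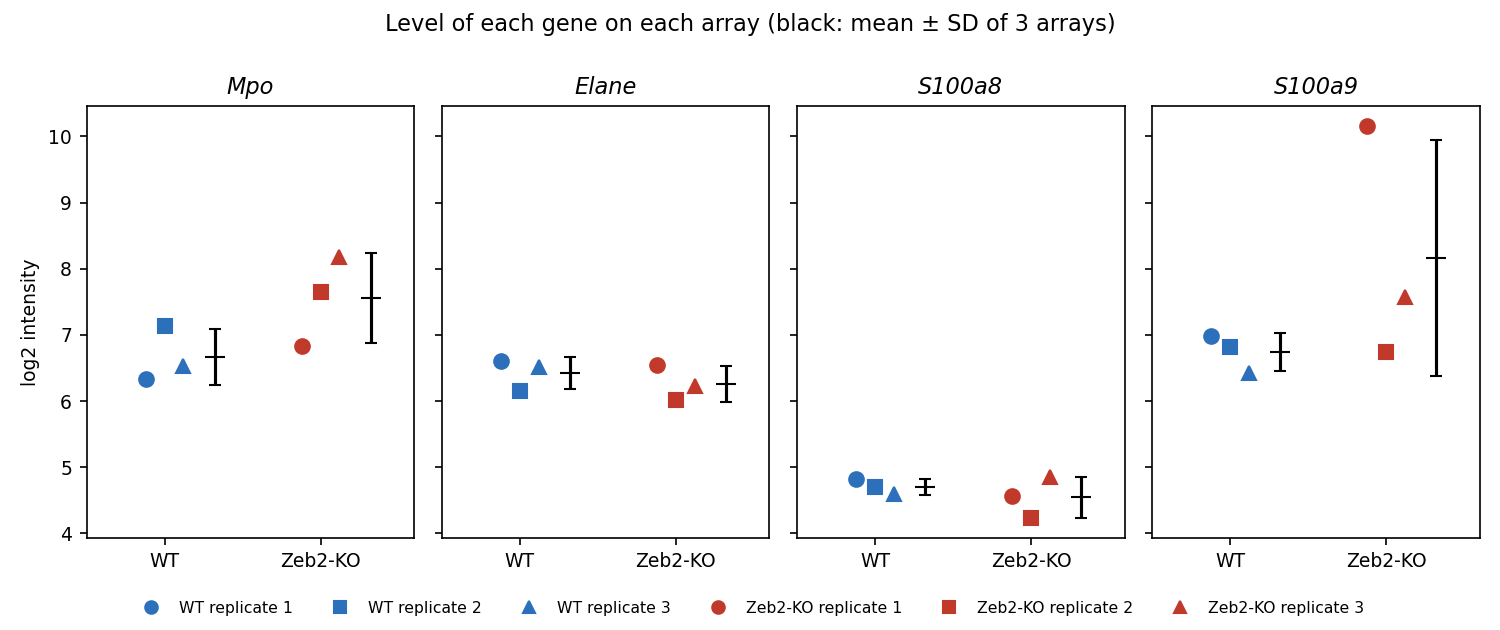
Log2 intensity of Mpo, Elane, S100a8 and S100a9 on each of the 3 WT arrays (blue) and the 3 arrays labelled Zeb2-KO (red), with the group mean ± SD in black and the marker shape giving the replicate number. The groups overlap for all 4 genes, and S100a9 on Zeb2-KO replicate 1 (10.16) stands far above the other 5 arrays; heights of different genes are not comparable because each has its own probes.

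Elane hardly moved. Log2 intensities were 6.55, 6.01 and 6.23 in the group labelled Zeb2-KO, against 6.60, 6.15 and 6.52 in WT. The whole span of 0.59 log2 units was 1.51-fold, and the groups interleaved. The difference was -0.16 (SE 0.29), with means of 6.26 ± 0.27 and 6.42 ± 0.24 (SD, n = 3), smaller than the SD within either group. Elane was high on the arrays with a small interquartile range (WT replicates 1 and 3 and Zeb2-KO replicate 1) and lowest on Zeb2-KO replicate 2, where that range was largest. Once array spread entered the fit the difference changed sign to 0.16.

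Of the other serine proteases of primary granules measured, 1 ran with Elane across the arrays and 1 did not. Prss57, neutrophil serine protease 4, stood at 5.81, 5.26 and 5.38 against 6.02, 5.38 and 5.66 in WT, a difference of -0.20 (limma adjusted p = 0.74). Its arrays fell into the same high and low sets as those of Elane. Ctsg, cathepsin G, stood at 5.02, 4.46 and 5.41 against 4.88, 4.56 and 4.69, a difference of 0.25 (limma adjusted p = 0.71), highest on Zeb2-KO replicate 3, where Mpo was highest too and Elane was not, and it did not share the high and low arrays of Elane. Prtn3, proteinase 3, the neighbour of Elane, was not analysed here. Ctsc, the protease that activates these enzymes, differed by 0.21 (limma adjusted p = 0.736), and Lpo, the peroxidase gene beside Mpo, by -0.34 (limma adjusted p = 0.674).

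**Figure D2:**
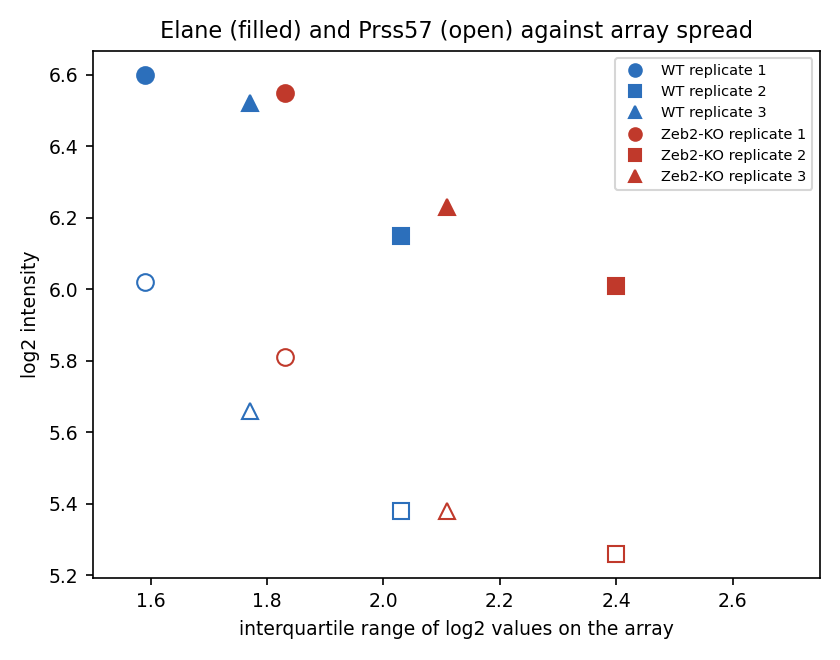
Log2 intensity of Elane (filled) and Prss57 (open) against the interquartile range of log2 values of each array, 1 point per array, with WT in blue, Zeb2-KO in red and the marker shape giving the replicate number. Both genes are higher on the 3 arrays with a range of 1.83 or less than on the 3 with a range of 2.03 or more, whatever the group.

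S100a9 carried the widest variation of the 4 genes, and it came from a single array. Its log2 intensity was 10.16, 6.74 and 7.57 in the group labelled Zeb2-KO and 6.98, 6.81 and 6.42 in WT, or 1142 on the linear scale on Zeb2-KO replicate 1 against 85.5 to 190 elsewhere. Zeb2-KO replicate 1 lay 2.59 log2 units (6.0-fold) above the next array, and Zeb2-KO replicate 2 lay below 2 of the WT arrays. The means of 8.16 ± 1.78 and 6.74 ± 0.29 (SD, n = 3) differed by 1.42 (SE 0.68), less than the SD within the group labelled Zeb2-KO. Without Zeb2-KO replicate 1 the difference was 0.42, and without Zeb2-KO replicate 2 it was 2.13. It was 2.65 once array spread entered the fit, and without both arrays with raised Y-linked signal it was 0.54.

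S100a8, the partner subunit, did not share that peak. Its values were 4.57, 4.23 and 4.85 in the group labelled Zeb2-KO and 4.82, 4.70 and 4.59 in WT, a span of 0.61 log2 units or 1.53-fold. Zeb2-KO replicate 1, where S100a9 was highest, was above only Zeb2-KO replicate 2 for S100a8. The difference was -0.15 (SE 0.29), with means of 4.55 ± 0.31 and 4.70 ± 0.12 (SD, n = 3), and it became 0.04 with quantile normalization and 0.15 with array weights. The S100a8 probe set lay below the median mean of all probe sets (6.63), as did that of Elane, so a filter at that level kept 2 of the 4 genes, Mpo and S100a9. The deposited table gives no detection call, and whether S100a8 RNA was above background was not tested.

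Across all 14610 probe sets tested with limma, 2 (0.0137%) passed an adjusted p of 0.05, and none of the 4 genes did. At an unadjusted p under 0.05 lay 5.69% of probe sets as higher on the arrays labelled Zeb2-KO and 1.33% as lower, and 1 of the 4 genes, Mpo, was among the former. Groups did not overlap in 13.2% of probe sets and in 0 of the 4 genes. With array weights, where limma stopped before convergence and gave Zeb2-KO replicate 3 a weight of 8.22, 6.69% of probe sets passed, and Mpo with a difference of 1.47 was among them. Nothing is read from these counts, since the comparison had guided the choice of the genes.

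Of 15 markers of mature neutrophils 4 were measured, S100a9 and S100a8 among them, and all but S100a9 had a mean below the median of all probe sets (6.63). Cxcr2, the chemokine receptor of circulating neutrophils, stood at 4.45 on Zeb2-KO replicate 1 and between 3.77 and 4.5 on the other arrays. Mmp9, gelatinase of the tertiary granules, stood at 6.08 there and between 5.37 and 6.21 elsewhere. The mean of the 4 markers, S100a9 among them, was 6.31 on Zeb2-KO replicate 1, 5.36 and 5.44 on the other arrays labelled Zeb2-KO and 5.23 to 5.59 in WT. This mean repeats the S100a9 value of 10.16 on Zeb2-KO replicate 1 and adds nothing to it. Cxcr2, Mmp9 and S100a8 each lay within the range of the other arrays there. Zeb2-KO replicate 1 was the highest array for 0 of the 11 secondary and tertiary granule genes measured and for 0 of the 12 primary granule genes, beside 10.3% of all probe sets, a share at which about 1 gene in each list would be, so these counts of 0 are near the background. Ltf, Camp, Ngp and Lcn2, which define the later granules, were not analysed here.

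**Figure D3:**
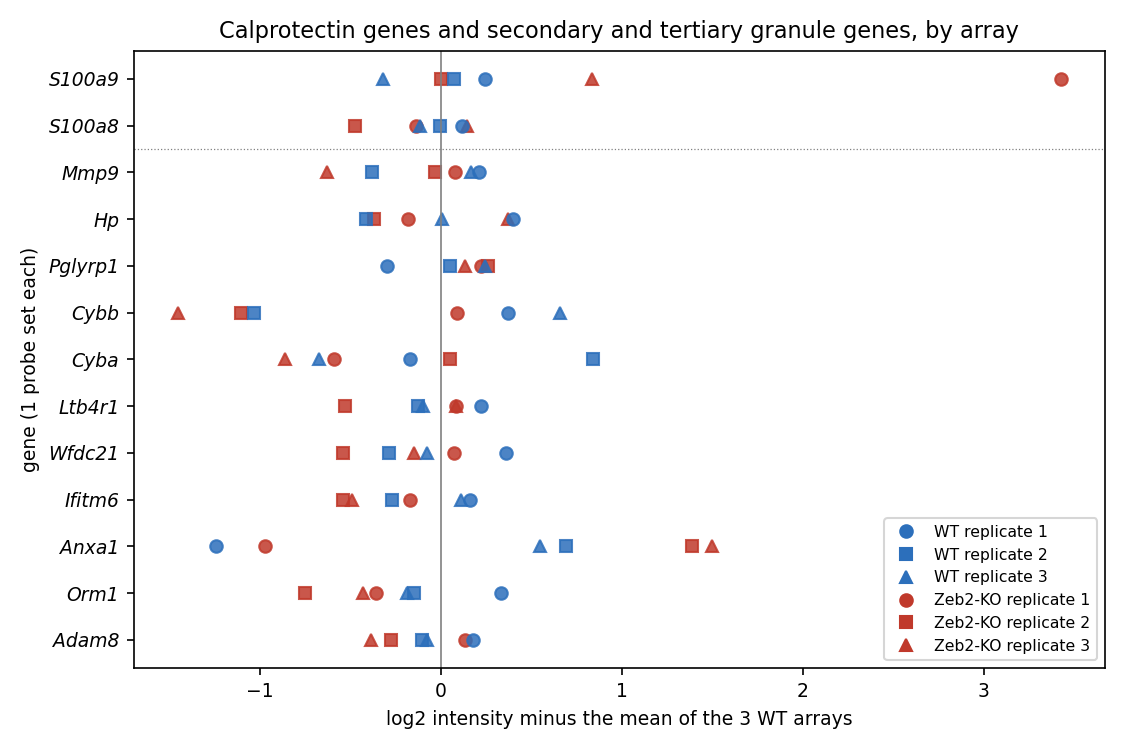
Log2 intensity minus the mean of the 3 WT arrays for S100a9 and S100a8 (above the dotted line) and the 11 measured secondary and tertiary granule genes (below), 1 point per array, with WT in blue, Zeb2-KO in red and the marker shape giving the replicate number. The red circle of Zeb2-KO replicate 1 lies far to the right for S100a9 and is the rightmost point for none of the granule genes, a count near the share over all probe sets.

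Single-array peaks as large as that of S100a9 were few on each array. In 30 of the 14610 probe sets the highest array led the next by at least as much, 8 of them on Zeb2-KO replicate 1 and between 1 and 9 on each other array. Of the 8, 5 carried 1 gene symbol. Beside S100a9 these were Dock6 (10.21, next 6.30), Snord35b (9.47, next 5.85), Cep350 (8.98, next 6.14) and Ect2l (5.97, next 3.37), named after their values were seen, and none is a granulocyte granule gene. A lead of at least 1 log2 unit was found in 61 probe sets for Zeb2-KO replicate 1 and in 57 to 126 for the other arrays. The raised Y-linked signal was seen on that array and on WT replicate 1, where S100a9 stood at 6.98, within the range of the other arrays.

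The other S100 genes showed no common direction. Apart from the calprotectin pair, 10 of 15 listed family members were measured, 5 higher and 5 lower on the arrays labelled Zeb2-KO, with a median difference of -0.11 beside -0.09 for all probe sets. Of these 10 genes, 0 passed the adjusted threshold of limma and 0 lay at an unadjusted p under 0.05. The shares of all probe sets at that unadjusted p were 5.69% as higher and 1.33% as lower. S100b (6.32, 5.88 and 6.30 against 6.60, 6.63 and 6.60) and S100a3 (5.32, 5.07 and 5.17 against 5.76, 5.51 and 5.6) were lower without overlap, by -0.45 and -0.43 (limma adjusted p = 0.673 for both). They were the 2 of the 10 genes without overlap, beside 13.2% of all probe sets in either direction, and nothing is read from this count. S100a7a, the protein-coding neighbour of S100a8 on the side away from S100a9, differed by -0.40 (limma adjusted p = 0.673). Pglyrp4, a peptidoglycan recognition protein and the protein-coding neighbour on the other side of S100a9, stood at 5.45, 5.19 and 5.40 against 6.28, 5.66 and 5.87, lower without overlap by -0.59 (limma adjusted p = 0.673). S100a3 and Pglyrp4 were highest on WT replicate 1, with the smallest array spread, and lowest on Zeb2-KO replicate 2, with the largest. These arrays were highest for 34.5% and lowest for 32.5% of all probe sets, and the part of array spread was not tested. S100a10, the annexin A2 partner, differed by 0.31, S100a11 by 0.20 and S100a1 by 0.30, all overlapping between groups. None of these S100 genes followed S100a9 to a peak on Zeb2-KO replicate 1.

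Genes that receive or relay the calprotectin signal were measured in 7 of 14 cases, with a median difference of 0.18. Differences were above 0 in 5, counting Tlr4, which rounds to 0.00, and below 0 in 2. Of the 7, 0 were past limma's adjusted threshold or an unadjusted p under 0.05. All probe sets had a median of -0.09, with 5.69% as higher and 1.33% as lower at that unadjusted p. Tlr4 itself differed by 0.00 (5.59 ± 0.19 against 5.59 ± 0.50, SD, n = 3). Myd88, the adaptor of Toll-like receptors, stood at 5.97, 7.54 and 6.62 against 7.05, 6.12 and 6.06, and Tirap, its bridging adaptor, differed by -0.23. Alcam and Bsg, surface proteins reported to bind S100a9, differed by 0.44 (limma adjusted p = 0.673, no overlap) and 0.26. Rela, an NF-kB subunit, differed by 0.18 and was highest on Zeb2-KO replicate 1, at 9.07. Ager and Cd14 were not analysed here.

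Among primary granule genes without Mpo and Elane, 10 of 15 were measured, 8 higher and 2 lower, with a median of 0.28. Of all 14610 probe sets 6514 were higher, with a median of -0.09. Of the 10, 0 passed limma's adjusted threshold and 1, Lamp1, lay at an unadjusted p under 0.05 as higher, beside 5.69% of all probe sets. Lamp1, a lysosomal membrane protein of most cells, stood at 7.25, 8.54 and 8.19 against 6.43, 7.24 and 7.11 in WT, just without overlap, a difference of 1.07 (limma adjusted p = 0.656). Srgn, the proteoglycan that packs granule proteins, was at 10.93, 11.03 and 10.92 against 10.63, 10.75 and 10.32 (difference 0.39, limma adjusted p = 0.673). The lysosomal enzyme genes Gusb (0.46) and Man2b1 (0.31) and the granule membrane gene Cd63 (0.20) overlapped between groups. Lyz2, lysozyme, differed by 0.40, and the lysosomal activator gene Gm2a had the lowest difference of the list, -0.32 (limma adjusted p = 0.675 for both). The median of the whole primary granule list was 0.28 and ran from 0.16 to 0.49 over the alternatives. It was 0.16 both with quantile normalization and once array spread entered the fit. The part of array spread in it was not otherwise tested.

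Of 30 listed secondary and tertiary granule genes 11 were measured, and 0 passed limma's adjusted threshold or an unadjusted p under 0.05. Among all probe sets 5.69% lay at that unadjusted p as higher and 1.33% as lower. The directions of the 11 genes were as follows. Their differences were above 0 in 2 and below 0 in 9, with a median of -0.19, beside 8096 of 14610 below 0 and a median of -0.09 over all probe sets. A difference from the primary granule list was not tested. The median became 0.01 once array spread entered the fit. Cybb, the large subunit of the phagocyte oxidase, stood at 7.56, 6.37 and 6.02 against 7.84, 6.44 and 8.13, a difference of -0.82 (limma adjusted p = 0.673), and its partner Cyba differed by -0.47. Orm1, an acute-phase protein, was lower without overlap by -0.51 and Ifitm6 differed by -0.40 with overlap (limma adjusted p = 0.673 for both). Anxa1, annexin A1, was low on the 2 arrays with raised Y-linked signal (5.30 on Zeb2-KO replicate 1 and 5.03 on WT replicate 1) and at 6.82 to 7.77 on the other 4. Pglyrp1, a peptidoglycan recognition protein, differed by 0.21.

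**Figure D4:**
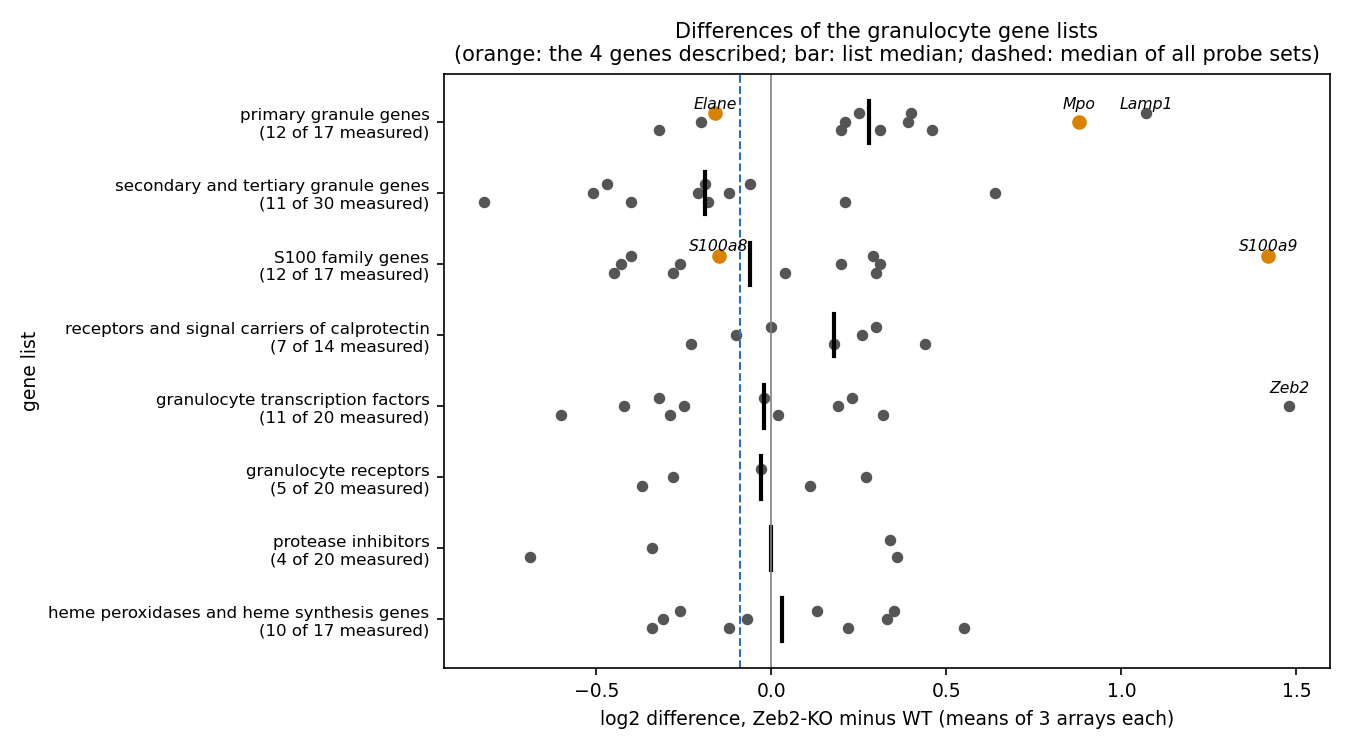
Log2 differences (Zeb2-KO minus WT, means of 3 arrays each) of every measured gene in the 8 granulocyte lists, 1 point per gene, with the 4 genes described in orange, list medians as black bars and the median of all probe sets (-0.09) as a dashed line. Most genes lie between -0.6 and 0.6, and only S100a9, Zeb2 and Lamp1 exceed 1 in size.

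Transcription factors of the granulocyte path were measured in 11 of 20 cases, 5 higher and 6 lower (median -0.02). Of the 11, 0 were past limma's adjusted threshold and 1, Zeb2, lay at an unadjusted p under 0.05. That unadjusted p was reached by 5.69% of all probe sets as higher and by 1.33% as lower. Spi1, which encodes PU.1, stood at 6.46, 5.70 and 5.87 against 6.14, 5.44 and 5.75, a difference of 0.23, and was highest on Zeb2-KO replicate 1. Cebpb, a C/EBP factor, differed by -0.29 and Gfi1, the repressor that guides neutrophil maturation, by -0.25. Irf8, which favours monocytes over granulocytes, differed by -0.42, Ets1 by -0.60, Klf4 by -0.32 and Egr1 by 0.32. Cbfb (-0.02), the partner of Runx factors, and Gfi1b (0.19) overlapped between groups. Cebpa, Cebpe and Runx1 were not analysed here.

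Receptors, inhibitors and heme genes were measured in 5 of 20, 4 of 20 and 10 of 17 cases. At an unadjusted p under 0.05 in limma lay 5.69% of all probe sets as higher and 1.33% as lower. Of 5 granulocyte receptors measured (median -0.03) 0 passed limma's adjusted threshold or an unadjusted p under 0.05, with Cxcr4, which holds cells in the marrow, at -0.28, Fcgr2b, an inhibitory IgG receptor, at -0.37 and Cxcr2 at 0.27. Of 4 protease inhibitors measured 0 passed the adjusted threshold and 1, Cst3, lay at an unadjusted p under 0.05. Cst3, cystatin C, an inhibitor of cysteine proteases, stood at 9.01, 9.67 and 9.36 against 10.33, 9.83 and 9.94, without overlap, a difference of -0.69 (limma adjusted p = 0.673). Serpina3n, a serine protease inhibitor, differed by -0.34. Among 10 peroxidase and heme synthesis genes (5 higher, 5 lower, median 0.03) 0 passed the adjusted threshold or an unadjusted p under 0.05, with Ppox at 0.55, Alad at 0.35 and Alas1, the first enzyme of heme synthesis in non-erythroid cells, at -0.31. Over the 8 lists without the 4 genes, 68 genes were measured. Of these, 2 lay at an unadjusted p under 0.05 as higher (Zeb2, the targeted gene, and Lamp1) and 1 as lower (Cst3). Without overlap between groups, 4 of the 68 were higher and 5 lower, beside 13.2% of all probe sets in either direction. Beside that share and the 5.69% and 1.33% of all probe sets, nothing is read from these counts.

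Mean log2 levels of other lineages' markers differed between some arrays, although 0 markers of any list passed limma's adjusted threshold. The part of these lineages in the values above was not tested. The smallest adjusted p of limma was 0.333 among megakaryocyte and platelet, 0.407 among erythroid, 0.414 among B lymphoid and 0.656 among monocyte and dendritic markers. The mean of 8 measured megakaryocyte and platelet markers of 12 ran from 8.20 to 8.91 on the arrays labelled Zeb2-KO and from 6.85 to 7.45 in WT, and that of 7 of 12 erythroid markers from 7.11 to 7.71 and from 6.66 to 6.93. The mean of 8 of 12 B lymphoid markers ran from 6.33 to 7.01 and from 7.06 to 8.02, and that of 12 of 15 monocyte and dendritic markers, which could share calprotectin, from 6.71 to 7.33 and from 7.19 to 7.74. On Zeb2-KO replicate 1, the array with high S100a9, the monocyte and dendritic mean was 7.33, above the other arrays labelled Zeb2-KO (6.71 and 6.98) and below WT replicates 1 and 3 (7.74 and 7.49). The macrophage antigen Adgre1 stood at 4.52 there and between 3.93 and 4.73 elsewhere. Means of 7 of 14 eosinophil, mast cell and basophil markers (5.19 to 5.41 and 5.33 to 5.70), 6 of 14 T and NK markers (5.22 to 5.6 and 5.27 to 5.59) and 13 of 15 stem cell and gate markers (7.82 to 8.16 and 7.68 to 8.14) overlapped. Those of 8 of 13 stromal and endothelial markers, 6.03 to 6.41 on the arrays labelled Zeb2-KO and 6.45 to 6.75 in WT, did not. The stem cell and gate mean joins genes of both directions. Of its 13 genes 4 were higher and 3 lower without overlap, beside 13.2% of all probe sets in either direction. Slamf1 differed by 1.3 and Cd48 by -1.02, both without overlap (limma adjusted p = 0.673 and 0.656).

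Genes with the most similar profile differed from member to member, as ranked by Pearson's r over the 6 arrays among genes at or above the median mean. Closest to Mpo were Map4k1 (r = 0.988), Sfmbt1 and Gstp1 (0.987 each), Trappc6b (0.981) and Polr1c (0.979). Gstp1, a glutathione transferase, spanned a wider range than Mpo, with 7.39, 9.07 and 10.16 against 6.88, 8.27 and 6.59. Closest to Elane were Frs3 (r = 0.998), 5730522E02Rik (0.995), Cd53 (0.993), Mllt6 and Sox1ot (0.992 each), all highest on WT replicate 1 and lowest on Zeb2-KO replicate 2. Closest to S100a8 were Camk2n1 (r = 0.974), Mir99b (0.953), Them7 (0.947), Tkfc (0.939) and Chmp1a (0.921). Closest to S100a9 were 1 of the probe sets of Chd7 (r = 0.968), Metap1d (0.956), Snord14e (0.955), Atg16l1 (0.950) and Sirpa (0.916), each highest on Zeb2-KO replicate 1. Elane and S100a8 lie below that level and could not be named as neighbours of another gene. With 6 arrays and so many candidates these correlations are descriptions only.

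**Figure D5:**
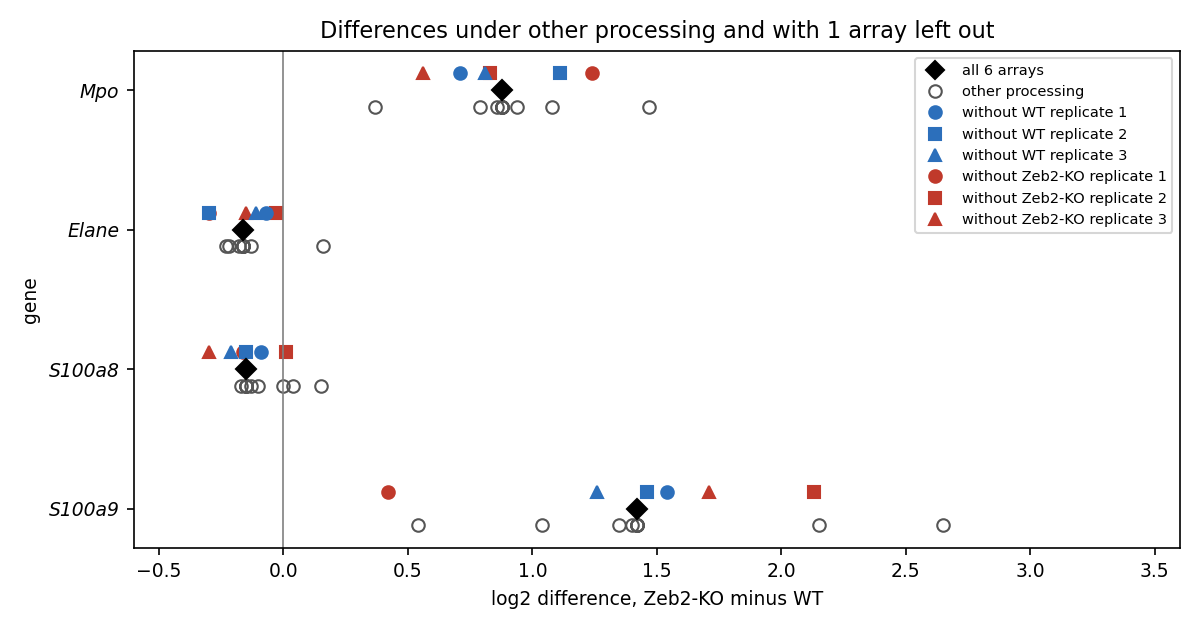
Log2 difference (Zeb2-KO minus WT) of each gene with all 6 arrays (black diamonds), under other processing (open circles) and with 1 array left out (coloured symbols, shape and colour as for the array left out). S100a9 falls from 1.42 to 0.42 without Zeb2-KO replicate 1, Mpo stays above 0 between 0.37 and 1.47, and Elane and S100a8 lie within 0.30 of 0.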

How the data were processed

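Per the labels' protocols, total RNA of the sorted cells was amplified and hybridised. The intensity values deposited for each probe set were made by the authors with RMA, per the submitters' processing notes (their version is not given in the sources used here). Although RMA normally ends in log2 values, the deposited ones span a linear range, and log2 of them was computed here. The labels call the arrays biological replicates without naming mice, so p-values measure the spread between these arrays. Of 20220 rows, 5610 with identifiers below the first annotated one were left out and 14610 were tested, 11229 of them with 1 symbol, 766 with several and 2615 with none in the platform annotation. Probe sets with several symbols gave no gene name. Array values carry no read depth, and 3 arrays per group limit the precision.

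The fit used limma 3.58.1 in R 4.3.3 (lmFit, eBayes), with 4 residual and 6.87 prior degrees of freedom and Benjamini-Hochberg adjustment over all 14610 probe sets at a threshold of 0.05. Differences are log2, Zeb2-KO minus WT, with limma's SE. Lists used 1 probe set per gene, that with the highest mean. Named list genes were up to 5 with the smallest p and 3 with the highest mean per list, and 4 with the highest mean per marker list; other names were chosen after their values were seen. The 4 genes and the lists were chosen with earlier results of these data known, and the promoter motifs after the sequences had been read. On 5 simulated sets of 14610 probe sets the fit recovered 71.3%, 89.6% and 94.8% of 200 changes of log2 size 2, 3 and 4, with a mean of 8.4 false calls. The simulated noise was normal, independent and of equal spread on all arrays, whereas the real arrays differed in spread. All these sizes lie above the differences of the 4 genes (at most 1.42), so the recovery of changes of that size was not tested. Alternatives were other normalizations, variance priors, array weights, a replicate block, the array spread as a covariate, a filter on dim probe sets, the left-out rows included, and each array left out; leaving out both arrays with raised Y-linked signal was added after seeing the data.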

Additional observations from a re-analysis of the deposited data

How the results depend on the processing

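Of the alternatives run, 16 of 17 for Mpo and 15 of 16 each for Elane and S100a8 left the difference within 1 pooled SD of the values above. The pooled SDs were 0.57, 0.26 and 0.23. For Elane and S100a8 they exceed the difference itself, so staying within them does not show that its sign is stable. For Mpo a fall to 0.37 still counts as within it. For S100a9 the pooled SD of 1.28 is widened by Zeb2-KO replicate 1 and gives no measure of stability, and its difference ran from 0.42 to 2.65. The exceptions were Mpo at 1.47 and S100a8 at 0.15 with array weights, and Elane at 0.16 with the array spread as a covariate; the cause was not tested. With 1 array left out, Mpo ran from 0.56 to 1.24, Elane from -0.30 to -0.03, S100a8 from -0.30 to 0.01 and S100a9 from 0.42 (without Zeb2-KO replicate 1) to 2.13. As the log2 ratio of linear group means the S100a9 difference was 2.15. The count of probe sets past the adjusted threshold, 2 with all arrays, was 1 without dim probe sets, 1 with the array spread as a covariate, 1 without both arrays with raised Y-linked signal and 978 with array weights, and it ran from 2 to 18 with 1 array left out (WT replicates 1, 2 and 3 left out gave 10, 18 and 9, and Zeb2-KO replicates 1, 2 and 3 gave 5, 3 and 2). With array weights 3 of the 68 list genes other than the 4 genes passed the threshold (Zeb2, Lamp1 and Cybb). Beside 6.69% of all probe sets in that fit, nothing is read from this count. With the replicate number as a block the count was 0 (2595 at an unadjusted p under 0.05, against 1025 without the block), and the member differences were the same. Same-numbered arrays deviated together for replicates 1 and 2 (r = 0.36 and 0.41) but not for replicate 3 (0.05), so the numbers were not taken to pair the samples. The medians of the S100, transcription factor and granulocyte receptor lists changed sign under 5, 4 and 4 of 17 alternatives. The table has no detection calls, so how far the dim probe sets of S100a8 and Elane can show a difference was not tested.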

Other observations

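A gene of another granule-bearing lineage also had a single-array signal. Fcer1a, the IgE receptor chain of mast cells and basophils, stood at 7.5 on Zeb2-KO replicate 2 and between 4.11 and 4.79 on the other 5 arrays, a gene picked out after its values were seen. The other 6 of the 7 measured eosinophil, mast cell and basophil markers (Prg3, Il5ra, Ccr3, Mcpt8, Prss34 and Hdc) were all lowest on that array, for example Mcpt8 at 4.73 and Prss34 at 5.25, which stood at up to 5.44 and 6.34 elsewhere. That array was the lowest for 32.5% of all probe sets and had the largest interquartile range (2.40). All 7 markers had means below the median of all probe sets (6.63), and the part of array spread in their low values was not tested. Nkg7, a protein of cytotoxic granules, stood at 7.83, 8.95 and 6.96 on the arrays labelled Zeb2-KO and at 6.86, 6.96 and 6.58 in WT, a difference of 1.12 (limma adjusted p = 0.662), again highest on Zeb2-KO replicate 2. Neither gene peaked on Zeb2-KO replicate 1, where S100a9 was highest.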
